A study of Homo sapiens with 4 samples.

Results

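The ABC (ATP-binding cassette) genes described here were the rows whose gene symbol consists of ABC, a subfamily letter from A to G and a number, with pseudogene and antisense symbols left out. There were 47 such rows of 62696, carrying 46 symbols, since ABCC13 stood in 2 rows. RNA was sequenced from OVCAR3, an established line of human high-grade serous ovarian carcinoma cells grown in RPMI medium with 10% FBS, in 3 libraries of cells with a short hairpin RNA knockdown of the pseudogene transcript ANAPC1P2 (KD 1, 2 and 3) and in 1 library of wild-type cells (WT). The labels name neither the hairpin vector nor a non-targeting hairpin, and they do not say whether the 3 knockdown sets were separate cultures, so p-values rest on differences among these libraries alone and those may be technical. The question was which ABC transcripts were higher or lower with this hairpin than in wild-type OVCAR3. Values are deposited normalized read counts unless another scale is named.

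Most ABC proteins use ATP to move a substrate across a membrane. Subfamilies A and G and ABCB4 are known above all for moving lipids, whereas ABCB1, several members of subfamily C and ABCG2 pump drugs and conjugates out of cells, which has made them a subject of chemotherapy resistance in ovarian cancer. Subfamily D works in peroxisomes and lysosomes, a group within subfamily B works in mitochondria, and ABCE1 and subfamily F hold no membrane domain and act on the ribosome.

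Between 42871815 and 56216398 reads fell in genes in the KD libraries, against 27868718 in WT. ANAPC1P2 itself was rare and not tested, with 0, 11 and 8 reads in KD 1, 2 and 3 against 14 in WT. All 10 epithelial and serous markers looked at, among them EPCAM, KRT7 and PAX8, had reads in every library. They summed to between 114507 and 126794 normalized counts in KD and 563973 in WT, with 5 of 10 higher in KD and 4 lower. The log2 difference, KD minus WT, was 1.27 for EPCAM and 0.76 for KRT7 but -1.66 for PAX8 and -4.01 for MUC16. The library labelled wild type also held transcripts of other cell types. The 5 red cell markers summed to between 1.55 and 3.79 normalized counts in KD and 14702 in WT, with HBB, HBA1 and HBA2 at 0 in KD, and the 4 tested ones were lower in KD. Genes were tested if they averaged at least 10 normalized counts over all 4 libraries. Genes with a KD mean under 10, such as these and LYZ and FCGR3B below, therefore passed through WT alone and could only be lower in KD. The 11 leukocyte markers summed to between 108 and 151 in KD and 1057 in WT, with LYZ, CD68, MS4A1, ITGAM and FCGR3B at 0 in KD, and the 8 tested ones were lower. The 7 fibroblast markers summed to between 519 and 616 in KD and 1175 in WT, with 2 of 5 tested lower and COL3A1 at 0 in KD. Most of that sum was COL1A1 in every library, and LUM, PDGFRA and THY1 were not called. DCN went the other way, with 8, 4 and 4 reads in KD 1, 2 and 3 and 0 in WT. The 6 neural markers summed to between 2270 and 3305 in KD and 3994 in WT, with 3 of 6 lower, 1 of 6 higher and NEUROD6 at 0 in KD and 2374 in WT. Without NEUROD6 the neural sum was higher in KD, at 2270 to 3305 against 1621 in WT, and most of it was MAP2. In the endothelial, melanocyte and hepatocyte lists 1 gene each was lower, of 5, 3 and 1 tested. The endothelial CLDN5 and the hepatocyte CYP3A4, with KD means of 8.42 and 7.12, passed the filter through WT alone and could only be lower. The sums of the epithelial and serous, red cell, leukocyte, fibroblast, endothelial, melanocyte and hepatocyte lists were all lower in KD. Single genes carried some of them. Most of the epithelial and serous sum in WT was MUC16, at 458890, while 5 of those 10 genes were higher in KD. The hepatocyte sum in WT was CYP3A4 alone, at 46.6, and ALB had 4, 6 and 5 reads in KD and 0 in WT. TYR, MITF and VWF also had KD means above WT, without a call. Lower sums in KD share the direction of the lower ABC genes below, and the part of these lists in those results was not tested.

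The ABC family was split between a few members that stood higher in KD, among them the abundant ABCE1, ABCF1 and ABCD3, and a larger number that stood lower, among them ABCA1, ABCA4 and ABCC3. Of the 47 rows, 39 averaged at least 10 normalized counts in these 4 libraries and were tested with limma. Of these, 8 rose in KD (20.5%), 19 fell (48.7%) and 12 were not called, at an adjusted p under 0.05. The filter itself fixed the direction of some members. ABCG1, at 0, 1.55 and 2.22 in KD and 184 in WT, passed through WT alone and could only be lower. The same held for ABCG5, with a KD mean of 9.71 and 34.4 in WT, though it was not called. ABCB1, at 0 in WT, could only be higher, and ABCA8, with a KD mean of 12.2 and 0 in WT, was left out. Over all 23344 genes tested, 31.4 percent rose and 36.3 percent fell. Over the 14464 tested protein-coding genes, 45.9 percent rose and 24.7 percent fell. The median log2 difference, KD minus WT, was -0.70 over the tested ABC rows, -0.28 over all genes tested and 0.28 over protein-coding ones. Of the tested ABC rows, 10 had all 3 KD libraries above WT and 24 had all 3 below it, while over all genes tested these shares were 40.0 percent and 52.2 percent. By subfamily, 7 of 11 tested A members fell and 1 rose, with a median of -1.29. The 8 tested members of subfamily B had a median of 0.34, which became -0.23 with equal library totals and -0.13 with upper-quartile scaling. In subfamily C 6 of 8 fell and none rose, with a median of -1.40, while 4 to 8 were lower under the 4 other scalings and 1, ABCC4, was higher with median-of-ratios scaling. The single member of subfamily E rose, 2 of 3 members of F rose, and in subfamily G 2 of 5 fell and none rose. Fewer cells that make a transcript and less of it per cell cannot be told apart in these bulk libraries.

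**Figure D1:**
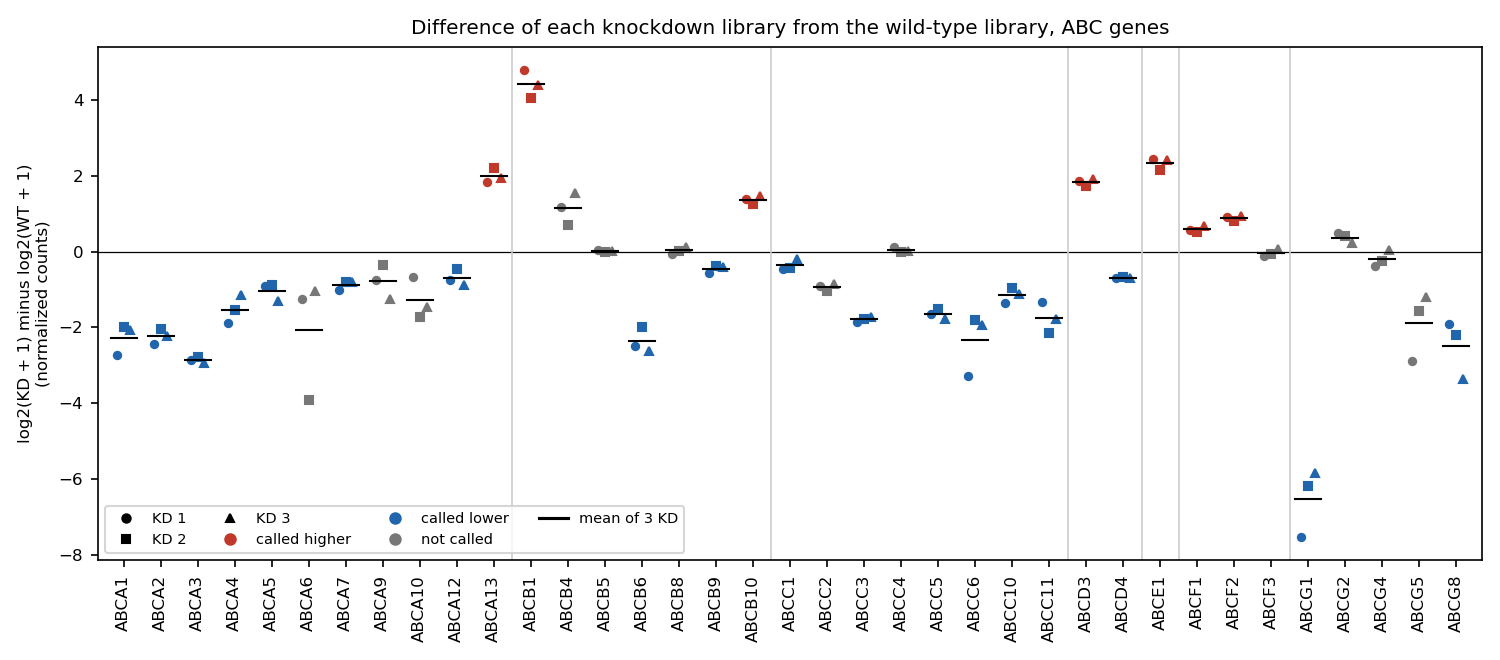
Log2 difference of each KD library from the WT library, log2(KD + 1) minus log2(WT + 1) in normalized counts, for 37 of the 39 tested ABC genes in order of subfamily (grey vertical lines). Points are the 3 KD libraries, bars their mean, and colour gives the limma call. Red points (7 genes) run up to ABCB1 at a mean of 4.41, and blue points (18 genes) run down to ABCG1 at -6.52.

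The share that each subfamily takes of the family's own RNA does not depend on how the libraries are scaled to each other. Per exonic base, ABCE1 alone made up 34.1, 29.8 and 32.1% of all ABC RNA in KD 1, 2 and 3, against 7.30% in WT. Subfamily A made up 6.98, 9.47 and 9.08% in KD and 29.2% in WT, and subfamily C 12.9, 13.9 and 13.6% in KD and 24.5% in WT. The 3 KD libraries lay close together on each of these shares and apart from WT. Shares of the other subfamilies were nearer to each other, with subfamily B at 14.8, 14.8 and 14.3% in KD and 11.5% in WT, subfamily D at 14.5, 14.9 and 14.0% in KD and 12.7% in WT, and subfamily F at 16.6, 17.0 and 16.8% in KD and 13.9% in WT. Subfamily G was the smallest, at 0.192, 0.227 and 0.203% in KD and 0.894% in WT. By role, the 11 lipid export genes took 5.88, 8.19 and 8.23% of the family in KD and 28.2% in WT. The 10 drug efflux genes took 13.1, 14.0 and 13.7% in KD and 24.6% in WT. As part of all reads in genes, the family took 1082, 1093 and 1114 RPM in KD and 1660 RPM in WT.

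**Figure D2:**
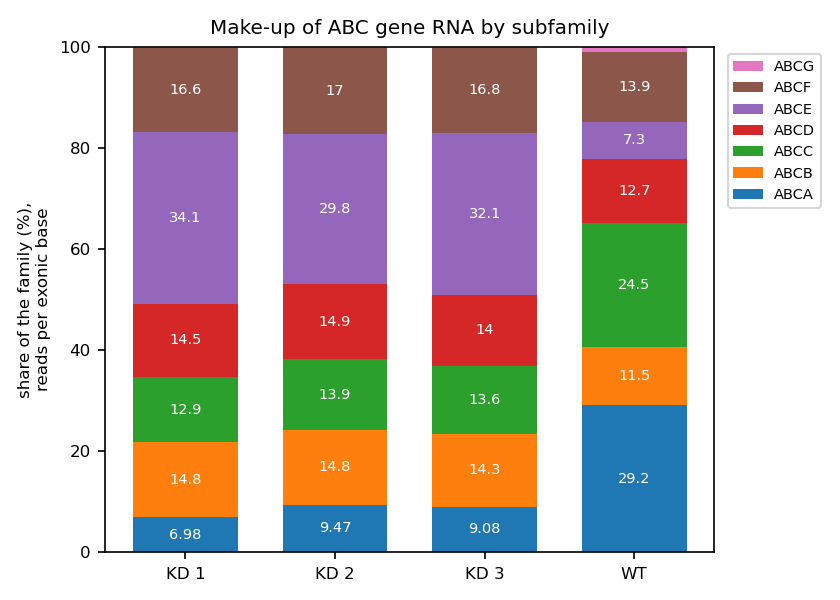
Share of ABC gene RNA held by each subfamily in each library, in percent of the summed reads per exonic base over the 46 rows with an annotated length. ABCE fills 29.8 to 34.1% of the KD bars and 7.30% of the WT bar, while ABCA fills 6.98 to 9.47% of the KD bars and 29.2% of the WT bar.

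Levels were compared between genes as RPKM, reads scaled by exonic length and by the total of reads in genes. In all 3 KD libraries the order began with ABCE1 at 55.7, 48.1 and 53.5, then ABCF1 at 19.6, 19.7 and 20.1, then ABCD3 at 14.9, 14.3 and 14.9. ABCC1 stood at 13.7 ± 0.961 in KD (mean ± SD, n = 3), and its highest library, at 14.7, lay within the range of ABCD3. In WT the order began with ABCA4 at 27.0, ABCC1 at 25.9, ABCF1 at 19.5, ABCD4 at 16.2 and ABCE1 at 15.3. ABCA4, first in WT, ranked 8th, 7th and 6th in KD 1, 2 and 3. On this scale, which sets the library totals equal, ABCF1 stood at 19.8 ± 0.287 in KD (SD, n = 3) and 19.5 in WT, although it was called higher on the deposited scale. The spread between KD libraries was small for the better-expressed members: the coefficient of variation of the 24 tested members with a KD mean of at least 100 normalized counts had a median of 7.53% and ran up to 26.5% for ABCA4. Among the 15 below that level the median was 30.4%.

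**Figure D3:**
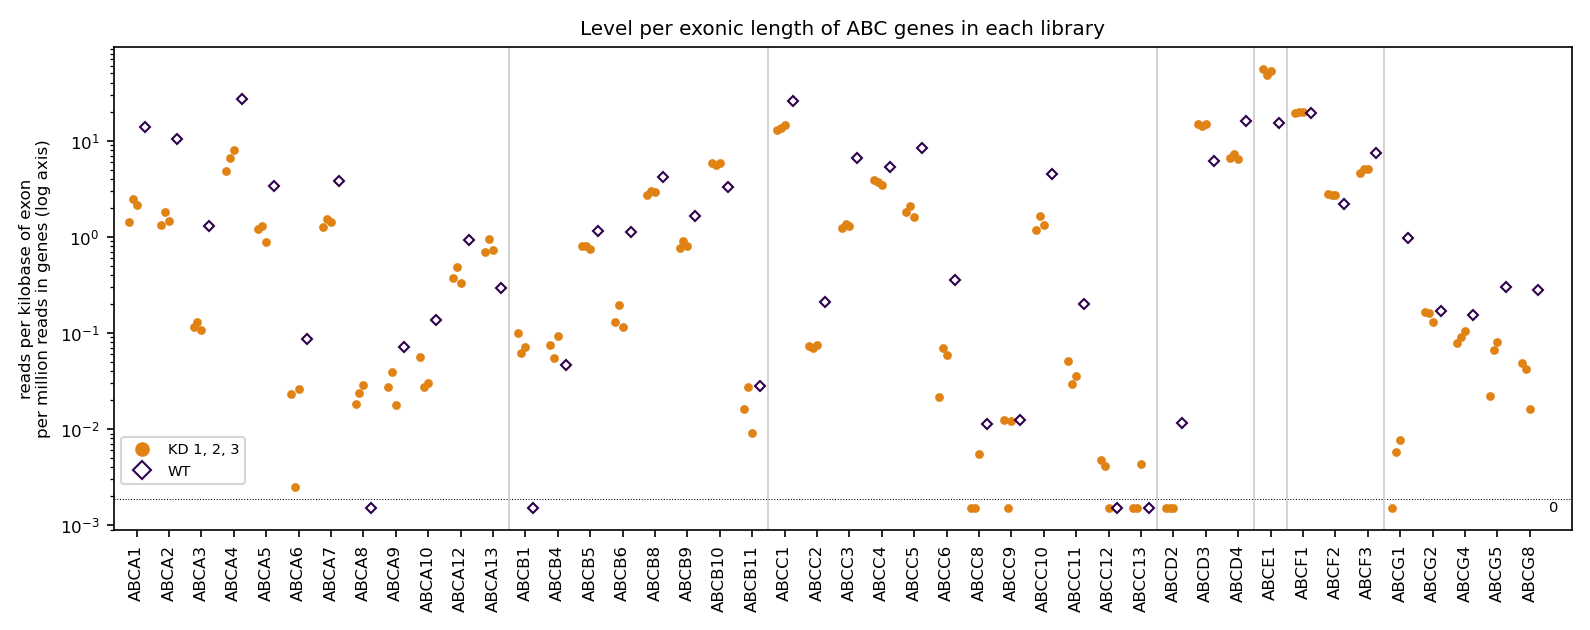
Level of ABC genes with an annotated length in each library, in RPKM on a log axis, with filled circles for KD 1, 2 and 3 and open diamonds for WT; points under the dotted line had no read. ABCE1 lies at 48.1 to 55.7 in KD and 15.3 in WT, ABCA4 at 4.89 to 7.99 in KD and 27.0 in WT.

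Promoter sequence is shown for 3 members that the results below turn on: ABCE1, the most abundant member in KD, ABCA1, the best known lipid exporter and lower in KD, and ABCB1, which had no read in WT. Each run is the 250 bases before a RefSeq transcript start on GRCh38.p14, given 5′ to 3′ on the gene's strand, and the first transcribed bases after it were also found in a GENCODE 29 transcript of the same gene. The windows are chr4:145098061-145098310 on the plus strand for ABCE1, chr9:104928156-104928405 on the minus strand for ABCA1 and chr7:87600885-87601134 on the minus strand for ABCB1. Capitals mark the motifs searched on both strands, which were the GC box GGGCGG, the CCAAT box CCAAT, the TATA box TATAAA, the E-box CACGTG, the NRF1 motif, which is GCGCA followed directly by TGCGC, and the DR4 element, which is AGGTCA repeated after any 4 bases and is known to be bound by liver X receptors.
ABCE1: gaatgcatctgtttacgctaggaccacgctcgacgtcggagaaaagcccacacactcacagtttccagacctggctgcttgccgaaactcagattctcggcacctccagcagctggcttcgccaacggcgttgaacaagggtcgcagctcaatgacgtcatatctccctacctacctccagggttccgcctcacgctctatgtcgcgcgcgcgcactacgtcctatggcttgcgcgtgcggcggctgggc
ABCA1: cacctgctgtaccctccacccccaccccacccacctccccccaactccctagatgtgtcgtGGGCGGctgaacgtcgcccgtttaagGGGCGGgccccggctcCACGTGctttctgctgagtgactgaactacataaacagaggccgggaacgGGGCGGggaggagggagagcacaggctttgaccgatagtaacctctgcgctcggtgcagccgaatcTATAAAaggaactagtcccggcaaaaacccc
ABCB1: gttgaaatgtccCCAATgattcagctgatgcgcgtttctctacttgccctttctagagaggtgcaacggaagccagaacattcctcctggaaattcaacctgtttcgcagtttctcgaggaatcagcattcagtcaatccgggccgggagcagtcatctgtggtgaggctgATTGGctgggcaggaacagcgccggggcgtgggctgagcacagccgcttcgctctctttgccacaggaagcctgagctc
The ABCE1 window holds none of these motifs, the ABCA1 window holds 3 GC boxes, 1 TATA box and 1 E-box, and the ABCB1 window holds 2 CCAAT boxes, 1 of them on the other strand. The RefSeq table gave 53 starts for 35 ABC symbols, several of them starts of the same gene. GC boxes were present before 25 of the 53 ABC starts and before 42.6% of all 35116 starts. Among starts of genes called higher in KD they were present before 4 of 8, and among starts of genes called lower before 13 of 22. The CCAAT box was found before 11 of 53 ABC starts and 32.0% of all starts, the TATA box before 6 and 10.7%, and the E-box before 9 and 6.34%. No ABC window held the exact NRF1 or DR4 letters, which 1.03% and 0.0142% of all windows held. Only exact letters were searched, so an element with any differing base was missed, in ABCA1 as elsewhere. The median GC content was 63.2% before starts of genes called higher, 64.6% before starts of genes called lower and 58.0% before all starts. A match is a description of the letters and not a bound site, and the lack of a match does not show that a site is absent.

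With the deposited scaling, the members that act on the ribosome were higher in KD or not called. ABCE1 (chromosome 4, 145097932 to 145129179 in GENCODE 29 on GRCh38), which splits ribosomes into subunits after translation ends, had 16037, 13168 and 15984 normalized counts in KD 1, 2 and 3, against 2976 in WT. All 3 KD libraries lay far above WT. Its log2 difference was 2.33 with an SE of 0.14 (adjusted p = 6.98e-05), and the pooled KD rate was 5.00-fold higher (95% counting interval 4.81 to 5.20). ABCF1, which promotes translation initiation, had 4071, 3883 and 4338 in KD and 2727 in WT, with a log2 difference of 0.59. ABCF2 had 533, 496 and 547 in KD and 284 in WT, with a difference of 0.88. Neither gene's KD libraries overlapped WT (adjusted p = 0.00311 for ABCF1 and 0.00196 for ABCF2), but the ABCF1 call was lost with equal library totals and with upper-quartile scaling. ABCF2 shares 45.8% of its exonic bases with another protein-coding gene on the same strand, so its count is uncertain. ABCF3, the relative of yeast GCN20, was not called, with 1112, 1161 and 1266 in KD and 1205 in WT (log2 difference -0.03, SE 0.12), but it was called lower with equal library totals (-0.60) and with upper-quartile scaling (-0.50). ABCE1 shares 7.50% of its exonic bases with ANAPC10 on the opposite strand, and whether the counting used strand is not stated. Of 10 genes of ribosome recycling and initiation, 9 rose and none fell, with a median of 1.33. With equal library totals 8 were called higher and 1 lower, with a median of 0.77. Over the tested protein-coding genes on the deposited scaling, 45.9% rose and 24.7% fell, with a median of 0.28. With equal totals, 20.3% of all genes tested were higher and 53.6% lower, with a median of -0.84. These shares stand beside this list and the partner lists below. EIF2S1, which encodes the alpha subunit of the initiation factor eIF2, had a log2 difference of 2.02, PELO, the partner of ABCE1 in the rescue of stalled ribosomes, 1.75, EIF2S2, the beta subunit of eIF2, 1.70 and ETF1, the release factor eRF1, 1.67.

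The peroxisomal and lysosomal subfamily D was split. ABCD3 (chromosome 1, 94418455 to 94518666), the peroxisomal membrane protein PMP70 that imports branched-chain and other acyl-CoAs, had 5204, 4745 and 5405 normalized counts in KD, against 1427 in WT. Every KD library lay above 3 times the WT value, and the pooled rate was 3.56-fold higher (log2 difference 1.84, SE 0.11, adjusted p = 6.83e-05). ABCD4, which takes part in the release of cobalamin from lysosomes, had 2690, 2754 and 2688 in KD and 4398 in WT, the tightest of all tested members in KD, and fell by 0.70 on the log2 scale (SE 0.09, adjusted p = 8.40e-04). ABCD2, a peroxisomal importer of very long-chain fatty acids, had no read in KD and 2 reads in WT. It was under the filter and was called lower with no filter, on those 2 reads. Of 10 genes of peroxisomal import and beta-oxidation, 7 rose and none fell, with a median of 0.64. With equal totals the median was 0.07, with 3 higher and 2 lower. On that scaling the median of all genes tested was -0.84, with 20.3% higher and 53.6% lower. SCP2, which encodes a thiolase and sterol carrier, had a log2 difference of 1.69, and PEX19, the receptor for peroxisomal membrane proteins such as PMP70, 1.07.

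Mitochondrial members of subfamily B went both ways. ABCB10, which is needed for haem synthesis in the mitochondrial inner membrane, had 1135, 1032 and 1182 normalized counts in KD, against 431 in WT, and rose by 1.37 on the log2 scale (SE 0.12, adjusted p = 1.95e-04). All 3 KD libraries lay above WT. ABCB8, another inner membrane member, had 1159, 1225 and 1308 in KD, against 1204 in WT, and was not called (0.03, SE 0.11), although it was called higher with median-of-ratios scaling (0.31) and lower with equal totals (-0.53) and upper-quartile scaling (-0.44). ABCB6, a porphyrin transporter that also carries the Langereis blood group, had 31.3, 45.1 and 28.9 in KD, against 182 in WT. Its KD libraries all lay far below WT (log2 difference -2.37, SE 0.40, adjusted p = 0.00257), but 54.7% of its exonic bases are shared with another protein-coding gene on the same strand, so the count is uncertain. The red cell sums given above were also lower in KD, and their part in the ABCB6 value was not tested. Of 15 tested genes of mitochondrial iron-sulphur and haem synthesis, 11 rose and 2 fell, with a median of 0.88. With equal totals the median was 0.32, with 8 higher and 4 lower, and the median of all genes tested was -0.84, with 20.3% higher and 53.6% lower. TMEM14C, a porphyrinogen importer, had a log2 difference of 1.97, the iron-sulphur scaffold gene ISCU and the glutaredoxin gene GLRX5 1.74 each, and the chaperone gene HSPA9 1.38. ABCB9, the lysosomal peptide transporter, had 463, 529 and 513 in KD and 684 in WT. Its difference of -0.45 (adjusted p = 0.0270) was not called without KD 1, and 12.5% and 20.7% of its exonic bases lie in opposite-strand genes. The ABCB9 call was also lost with TMM and median-of-ratios scaling, with DESeq2 and with no filter. ABCB5, known as a marker of limbal stem cells and melanoma subpopulations, had 338, 322 and 332 in KD and 327 in WT (0.02, SE 0.15), and was called lower with equal totals (-0.54) and upper-quartile scaling (-0.45).

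Among the 10 drug efflux genes, all of which were tested, 6 fell, 1 rose and 3 were not called, with a median log2 difference of -1.05, or -1.61 to -0.77 under the 4 other scalings. ABCB1 (chromosome 7, 87503633 to 87713323), the multidrug pump P-glycoprotein, had 28, 20 and 18 reads in KD 1, 2 and 3, against 0 in WT. In normalized counts this was 26.5, 15.5 and 20.0 in KD, and the group stood at least 6.11-fold higher, with 3 reads as the floor for WT. The fitted difference of 4.41 (SE 0.64, adjusted p = 0.00139) depends on the pseudocount and is no bound. Despite its call ABCB1 was a minor member, at 0.0996, 0.0613 and 0.0723 RPKM in KD, while ABCC1 stood at 12.8, 13.5 and 14.7 on that scale.

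ABCC1 (chromosome 16, 15949577 to 16143074), the glutathione conjugate pump MRP1, was the most abundant drug efflux gene in every library, with 4445, 4464 and 5301 normalized counts in KD and 6071 in WT. It fell by 0.36 on the log2 scale (SE 0.13, adjusted p = 0.0445), a call lost without KD 1 and without KD 2. ABCC3, the basolateral pump MRP3, had 543, 572 and 597 in KD, against 1979 in WT, with all KD libraries well below WT (log2 difference -1.79, SE 0.12, adjusted p = 7.78e-05). ABCC5, the nucleotide and folate exporter MRP5, had 952, 1048 and 876 in KD and 2993 in WT, with the same pattern (-1.65, SE 0.13, adjusted p = 1.15e-04). ABCC10, MRP7, which exports taxanes, had 440, 578 and 518 in KD and 1136 in WT (-1.16, SE 0.17, adjusted p = 0.00156). These 3 genes stood 3.48-fold, 3.09-fold and 2.20-fold lower in KD.

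ABCC6, which is mutated in pseudoxanthoma elasticum, and ABCC11, the apocrine gland transporter behind earwax type, were low. ABCC6 had 8, 30 and 19 reads in KD, against 75 in WT, or 7.58, 23.3 and 21.1 normalized counts in KD and 83.3 in WT (-2.34, SE 0.70, adjusted p = 0.0242). KD 1 was the lowest, and no KD library reached WT. The pseudogene ABCC6P1, a near-identical copy that can share its reads, had 71, 98 and 98 reads in KD, against 127 in WT, so the value of ABCC6 is uncertain. ABCC11 had 17.1, 9.32 and 12.2 in KD and 44.4 in WT (-1.75, SE 0.56, adjusted p = 0.0313) and was not called without KD 2 or without KD 3. The ABCC11 call was also lost with median-of-ratios scaling, with DESeq2 and with no filter.

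ABCC4, ABCG2 and ABCC2 were not called with the deposited scaling. ABCC4, MRP4, which exports cyclic nucleotides and prostaglandins, had 1548, 1402 and 1434 normalized counts in KD and 1412 in WT (log2 difference 0.05, SE 0.11). Its direction depends on the scaling: it was called lower with equal library totals (-0.51) and upper-quartile scaling (-0.42) and called higher with median-of-ratios scaling (0.33). ABCG2, the breast cancer resistance protein BCRP, had 37.9, 35.7 and 31.1 in KD and 26.7 in WT (0.37, SE 0.42), with all KD libraries slightly above WT on the deposited scale and a difference of -0.17 with equal totals. ABCC2, the apical pump MRP2, had 26.5, 24.1 and 27.8 in KD and 51.1 in WT (-0.94, SE 0.42, adjusted p = 0.0850). Of 11 tested regulators of drug response and drug or platinum transporters outside the ABC family, 6 rose and 4 fell, with a median of 1.10. Over the tested protein-coding genes 45.9% rose and 24.7% fell, with a median of 0.28. SLC47A2, a cation extruder, had a log2 difference of -3.64. With a KD mean of 9.67 and 122 in WT, it passed the filter through WT alone and could only be lower. ATP7B, a copper exporter linked to platinum handling, had -1.49. YBX1, a nucleic acid binding protein studied as a regulator of ABCB1, had 2.34 and AHR, the aryl hydrocarbon receptor, 1.50.

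Of the 11 lipid export genes, all of them tested, 8 fell and none rose. Their median log2 difference was -1.89, or -2.43 to -1.62 under the 4 other scalings. With the deposited scaling that median is the value of ABCG5 itself. Both ABCG5 and ABCG1 passed the filter through WT alone and could only be lower. ABCA1 (chromosome 9, 104781002 to 104928237), which loads cholesterol and phospholipid onto apolipoprotein A-I, had 734, 1223 and 1156 normalized counts in KD, against 4881 in WT. KD 1 was the lowest and no KD library came near WT, and the group stood 4.67-fold lower (log2 difference -2.27, SE 0.28, adjusted p = 6.46e-04). ABCG1 (chromosome 21, 42199689 to 42297244), which passes cholesterol to HDL, had 0, 2 and 2 reads in KD, against 166 in WT. In normalized counts it stood at 0, 1.55 and 2.22 in KD and 184 in WT. With only 4 KD reads, the pooled rate was 149-fold lower with a 95% counting interval of 57.3 to 555, and 101-fold to 216-fold lower when 1 KD library was left out (fitted difference -6.52, SE 0.89, adjusted p = 0.00102). ABCA1 and ABCG1 are also well known from macrophages. The leukocyte sum was 108 to 151 in KD and 1057 in WT, with its macrophage markers CD68 and ITGAM at 0 in KD and at 16.7 and 15.5 in WT. Its markers CD14 and CSF1R, also known from macrophages, had reads in every KD library, at 24.6, 28.8 and 31.1 for CD14 in KD against 77.7 in WT, and at 30.3, 33.4 and 12.2 for CSF1R in KD against 85.5 in WT. The part of the leukocyte sum in these values was not tested.

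ABCA4 (chromosome 1, 93992835 to 94121132), the retinoid-lipid flippase known from photoreceptors, was the ABC gene with the highest level per exonic length in WT. It had 1915, 2436 and 3247 normalized counts in KD, against 7140 in WT, with KD 3 the nearest to WT (log2 difference -1.53, SE 0.26, adjusted p = 0.00273). ABCA2, an endolysosomal lipid transporter abundant in oligodendrocytes, had 696, 916 and 796 in KD and 3749 in WT (-2.23, SE 0.16, adjusted p = 9.61e-05). ABCA3, which fills the lamellar bodies of lung surfactant, had 41.7, 44.3 and 40.0 in KD and 312 in WT and stood 7.38-fold lower (-2.87, SE 0.30, adjusted p = 3.47e-04). In each of these genes all 3 KD libraries lay below WT, and in ABCA3 they almost coincided. ABCA7, a phospholipid exporter known from Alzheimer's disease genetics, had 489, 566 and 565 in KD and 994 in WT (-0.88, adjusted p = 0.00201). ABCA12, the ceramide carrier of the skin barrier, had 160, 197 and 147 in KD and 271 in WT (-0.70, adjusted p = 0.0369), a call lost without KD 1 and without KD 3. The ABCA12 call was also lost with TMM and median-of-ratios scaling, with DESeq2 and with no filter.

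The remaining lipid exporters were at low levels. ABCG5 and ABCG8, the paired sterol exporters of intestine and liver, lie on chromosome 2 on opposite strands with overlapping ends. ABCG8 had 22.7, 18.6 and 7.78 normalized counts in KD, against 88.9 in WT (-2.49, SE 0.67, adjusted p = 0.0163). ABCG5 was not called, with 3.79, 10.9 and 14.5 in KD and 34.4 in WT (-1.89, SE 0.79, adjusted p = 0.0726). Both genes were below WT in all KD libraries, with KD 3 the lowest for ABCG8 and KD 1 for ABCG5. ABCB4, the phosphatidylcholine floppase of bile, lies 23.2 kb from ABCB1 and had 26.5, 18.6 and 34.5 in KD and 11.1 in WT (1.14, SE 0.55, adjusted p = 0.103). It was above WT in every KD library, as its neighbour ABCB1 was. ABCG4, a sterol exporter of brain, had 22.7, 24.9 and 31.1 in KD and 30.0 in WT (-0.20, SE 0.46), with groups that overlap.

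Of 14 tested genes of sterol efflux and uptake, 7 rose and 3 fell, with a median of 0.31. This was near the tested protein-coding genes, of which 45.9% rose and 24.7% fell, with a median of 0.28. The median of the sterol list became -0.25 with equal totals, where 3 were higher and 7 lower. It was -0.16 with upper-quartile scaling, where 4 were higher and 7 lower. Over all genes tested, 20.3% were higher and 53.6% lower with equal totals, and 22.5% and 50.7% with upper-quartile scaling. The medians of all genes tested were then -0.84 and -0.74. SOAT1, which esterifies cholesterol for storage, had a log2 difference of 1.44 and NPC2, which moves cholesterol out of lysosomes, 1.39. APOE, an acceptor of exported lipid, had -1.39 and SREBF1, the regulator of fatty acid synthesis, -1.26. These 4 genes kept their calls under the 4 other scalings. NR1H3 and NR1H2, which encode the liver X receptors that are known to activate ABCA1 and ABCG1, are named after their values were seen. NR1H3 had 1526, 1237 and 1349 normalized counts in KD and 684 in WT (1.00), and NR1H2 had 2331, 2207 and 2633 in KD and 1414 in WT (0.75). All KD libraries lay above WT for both genes, unlike ABCA1 and ABCG1. The NR1H2 call was lost with equal totals. MYLIP and LPCAT3, further known targets of these receptors, had -0.09, not called, and -0.89, called lower.

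Outside the lipid export and drug efflux groups, subfamily A held the longest ABC gene and a cluster on chromosome 17. ABCA13 (chromosome 7, 48171458 to 48647496), which encodes the largest protein of the family, had 613, 794 and 666 normalized counts in KD, against 172 in WT. Of the 11 subfamily A members that passed the filter it alone was called higher, with a pooled rate 4.06-fold higher (log2 difference 1.99, SE 0.18, adjusted p = 1.81e-04) and all KD libraries well above WT. In the chromosome 17 cluster ABCA5, a lysosomal member, had 725, 741 and 555 in KD and 1362 in WT and fell by 1.03 on the log2 scale (SE 0.19, adjusted p = 0.00338). Its neighbours ABCA10, ABCA6 and ABCA9 had between 1.55 and 21.8 in KD and between 20.0 and 37.8 in WT and were not called, with log2 differences of -1.29, -2.08 and -0.79. ABCA8, at the other end of the cluster, went the other way, with 10, 15 and 14 reads in KD, against 0 in WT, at least 3.61-fold higher. Its mean was under the filter, and with no filter on low values it was called higher (adjusted p = 0.0175).

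The other rows under the filter had few reads. ABCB11, the bile salt export pump, had 6, 12 and 3 reads in KD and 6 in WT. ABCC8 and ABCC9, the sulphonylurea receptors of ATP-sensitive potassium channels, had 0, 0 and 3 reads and 7, 0 and 6 reads in KD, and 4 reads each in WT. Of the channel pores they pair with, KCNJ11 was called lower (log2 difference -2.42) at 5, 6 and 8 reads in KD and 32 in WT. With a KD mean of 6.1 normalized counts, KCNJ11 passed the filter through WT alone and could only be lower. KCNJ8 had 0 reads in KD and 4 in WT. ABCC12 had 2, 2 and 0 reads in KD and 0 in WT. ABCC13, a pseudogene in GENCODE 29, had 0, 0 and 2 reads in KD in one row and 0, 4 and 2 in the other, with 0 in WT in both. At 3 reads per library, a gene with 0 reads could still be present at up to 3.33 normalized counts in WT.

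Of 4 tested genes in a list of ABC genes with other symbols and their partners, TAPBPL, a tapasin relative, was called lower (-0.55, adjusted p = 0.0457) and none was called higher. The TAPBPL call was lost with TMM and median-of-ratios scaling, with DESeq2 and without any 1 of the KD libraries. All 4 genes were called lower with equal totals, where 53.6% of all genes tested were lower. TAP1, part of the peptide transporter of antigen presentation, had 223, 200 and 215 normalized counts in KD and 284 in WT (-0.42, adjusted p = 0.0778), and CFTR, the chloride channel, had 13.3, 21.8 and 15.6 in KD and 33.3 in WT (-0.97, adjusted p = 0.143). TAP2 had 0, 3 and 0 reads in KD and 7 in WT.

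ABC transcripts are long, and the differences varied with length. The median exonic length was 7837 bases over the 39 tested ABC rows and 5020.5 over the tested protein-coding genes. Among protein-coding genes in the longest of 3 length classes, from 6527 bases, the median log2 difference was 0.01, with 36.5% higher and 33.9% lower, whereas it was 0.33 in the middle class and 0.64 in the short class. Of the 26 ABC rows in the long class, 16 fell and 2 rose, ABCA13 and ABCD3, with a median of -0.98. Of the 12 in the middle class, 6 rose and 3 fell, with a median of 0.48. Spearman's rho between exonic length and log2 difference was -0.28 across the 39 ABC rows and -0.20 across 14464 protein-coding genes, where genes share libraries and are not independent replicates. The part of length in the ABC differences was not tested further.

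**Figure D4:**
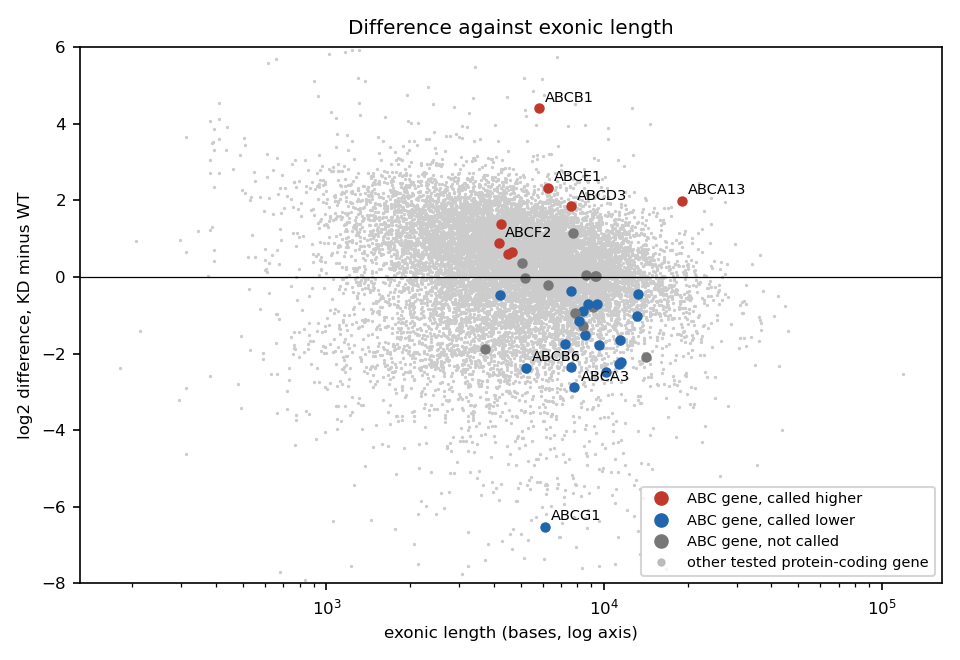
Log2 difference (KD minus WT, limma fit) against exonic length in bases on a log axis, for tested protein-coding genes in grey (12 lie outside the plotted range) and tested ABC genes in colour by call. Most of the 19 blue points lie to the right, 16 of them from 6527 bases, and 6 of the 8 red points lie in the middle class.

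Where the ABC genes stand depends in part on how the libraries are set to one another. The normalized totals were between 43684783 and 47661423 in KD and 30953613 in WT, so the deposited scaling differs from one with equal totals. Against the deposited scaling, the median log2 difference of all genes shifted by -0.56 with equal totals, by -0.46 with upper-quartile scaling, by 0.28 with median-of-ratios scaling and by 0.10 with TMM scaling. The share of all called genes that were higher was 46.4% as deposited, 27.5% with equal totals, 56.9% with median-of-ratios, 50.9% with TMM and 30.7% with upper-quartile scaling. ABC genes called lower outnumbered those called higher under each of the 5 scalings, by 19 to 8 as deposited, 26 to 6 with equal totals, 14 to 10 with median-of-ratios, 15 to 8 with TMM and 26 to 6 with upper-quartile scaling. Of the 8 higher calls, 6 held under the 4 other scalings (ABCA13, ABCB1, ABCB10, ABCD3, ABCE1 and ABCF2). Of the 19 lower calls 14 held, namely ABCA1, ABCA2, ABCA3, ABCA4, ABCA5, ABCA7, ABCB6, ABCC3, ABCC5, ABCC6, ABCC10, ABCD4, ABCG1 and ABCG8.

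**Figure D5:**
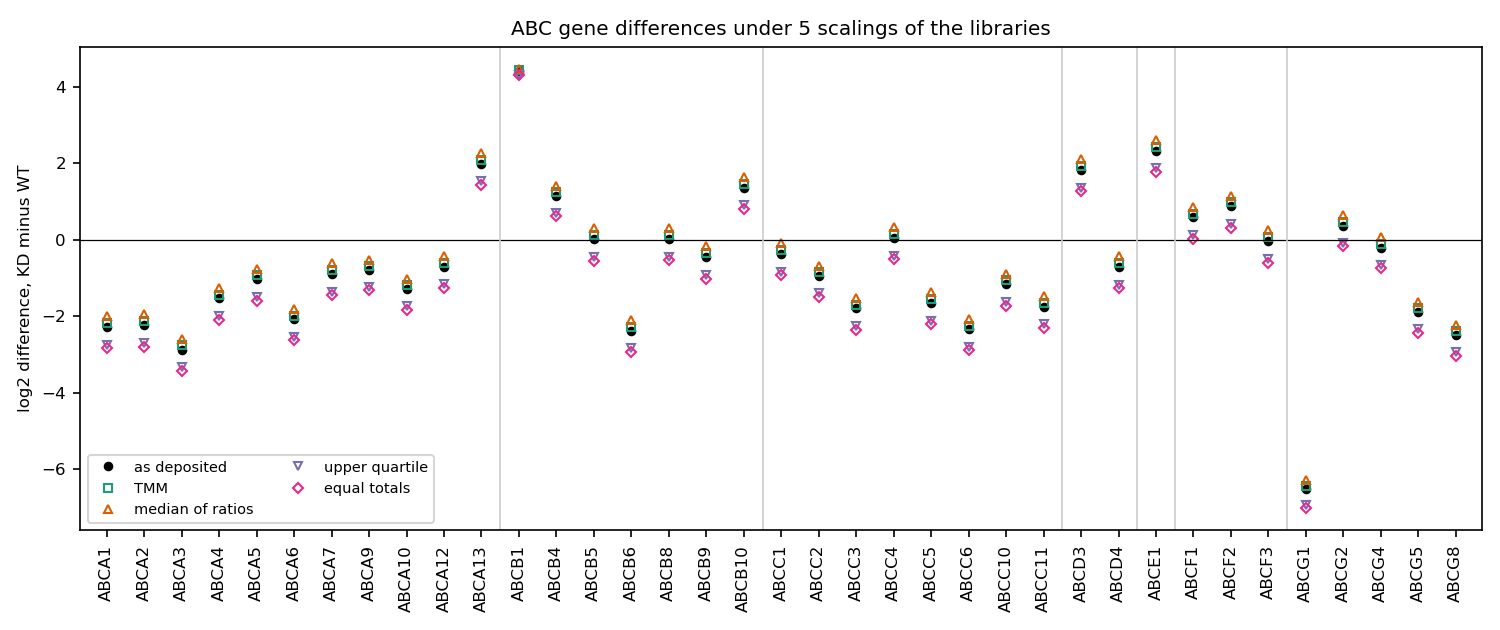
Log2 difference (KD minus WT) of 37 of the 39 tested ABC genes under the deposited scaling and 4 others, in order of subfamily. The points of a gene are shifted by nearly the same amount, which leaves ABCE1, ABCD3 and ABCA13 above zero and ABCA1 to ABCA5 and ABCG1 below it under each scaling, while ABCB5, ABCB8, ABCC4, ABCF3, ABCG2 and ABCG4 cross zero.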

How the data were processed

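Total RNA was depleted of ribosomal RNA (KAPA RiboErase) and made into libraries that mark strand with dUTP, per the labels' protocols. Per the submitters' processing notes, the tools were STAR 2.7.11b, featureCounts 2.0.6 and DESeq2 and the genome build was hg38. Not stated there are the gene annotation, the strand option of the counting, the handling of multi-mapping reads and the way the normalization factors were found. Each library's file lists a signal value for every gene, deposited as a normalized read count. Within 0.001 reads, 100% of these values equalled a whole number of reads divided by 1 factor per library. The reads were recovered with factors of 1.0551, 1.2869 and 0.8995 for KD 1, 2 and 3 and 0.9003 for WT.

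The 23344 genes averaging 10 or more normalized counts were fitted with limma-trend (limma 3.58.1, R 4.3.3) on log2(value + 1), a scale that understates differences of low genes. The test was two-sided with Benjamini-Hochberg adjustment over all of them and a threshold of 0.05. The spread came from the 3 KD libraries, and the lone WT library was assumed to vary like them. Alternatives were pseudocounts of 0.5 and 5, other filters, 4 other scalings, protein-coding genes only, leaving out each KD library, and edgeR 4.0.16 and DESeq2 1.42.0 on the recovered reads. The fits were tested on simulated data. Folds compare pooled rates, with exact 95% conditional binomial intervals and a floor of 3 reads per library for a gene at 0 (3.33 normalized counts in WT). The labels mention no molecular identifiers, and both cover counting error only. Exonic lengths and positions came from GENCODE 29 on GRCh38, where 92.9% of identifiers were found. Promoters came from RefSeq on GRCh38.p14.

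ABC genes and the lists of partners and markers were chosen with earlier results of these data known. Values per library are given for ABC genes called with an absolute log2 difference of at least 1 and for drug efflux and lipid export genes, and others where they help a reader. Of each partner list, at most 4 called genes with an absolute difference of at least 1 are named, by size, and genes outside this rule were chosen after their values were seen. In the family, 2 genes enter the counts and medians but are not reported here by name.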

Additional observations from a re-analysis of the deposited data

How the results depend on the processing

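The number of ABC genes called higher was 6 to 10 under each alternative tried, against 8. The number called lower was 12 of 47 rows with no filter on low values, against 19 of 39. Of the 41539 genes tested with no filter, 22.3% were lower and 15.8% higher, and 9 of the 47 ABC rows were higher. The lower count was between 14 and 26 under the other alternatives, 15 to 17 when 1 KD library was left out. Under those, 25.6 to 53.6% of all genes tested were lower and 20.3 to 46.3% higher. The higher count was 8 each time a KD library was left out, and the median log2 difference was -0.82 to -0.61, against -0.70. That median was -0.49 with no filter, -0.46 with the filter at 50 normalized counts, -1.26 with equal library totals, -0.42 with median-of-ratios and -1.17 with upper-quartile scaling, below zero each time. With ABCB1 at its bound the median was unchanged at -0.70. In all, 5 lower calls were lost when a single KD library was left out (among them ABCA12 without KD 1 or KD 3, ABCB9 without KD 1, ABCC1 without KD 1 or KD 2, ABCC11 without KD 2 or KD 3), and no higher call was. Signs turned for 6 genes that were not called with the deposited scaling. With equal totals ABCB5 was at -0.54, ABCB8 at -0.53, ABCC4 at -0.51 and ABCG2 at -0.17, and with upper-quartile scaling they were at -0.45, -0.44, -0.42 and -0.08, and ABCB5, ABCB8 and ABCC4 were called lower under both. ABCB8 and ABCC4 were called higher with median-of-ratios scaling, and ABCF3 lower with equal totals and upper-quartile scaling. ABCF3 was at 0.07 with TMM, 0.25 with median-of-ratios scaling and 0.01 without KD 1, ABCG4 at 0.07 with median-of-ratios scaling, and ABCB8 at -0.01 without KD 3. The cause of these changes was not tested. Of all values per gene and alternative, 470 kept direction and side of the threshold, 35 lost a call, 15 gained one in the same direction and 13 turned sign, 6 of them gaining a call in the new direction. With no filter on low values ABCA8 was called higher and ABCD2 lower. With 1 WT library, no spread among wild-type cells could be measured. No paired analysis was possible because WT has 1 library and the groups share fewer than 2 replicate numbers.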
